A study of Mus musculus with 16 samples.

Results

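C/D box small nucleolar RNAs of the postnatal mouse ventricle were taken as every gene of the count table whose Ensembl identifier maps to a symbol that starts with Snord. There were 99 such genes among 53801 genes, under 98 distinct symbols, since Snord80 was listed under 2 identifiers. Of the 99, 47 had at least 1 count in any library, 52 were listed at 0 in all libraries, and 43 passed the filter on low counts and were tested. The libraries came from ventricular tissue of male and female pups of the strain C57BL/6JOlaHsd, with no treatment or mutant allele named, killed on postnatal day 1 (P01), P04, P09 or P23, with 4 pups per day and 1 library per pup. Pups of P23 were not yet weaned and had general diet besides milk. The study followed heart tissue over the days after birth in which the mouse heart loses its ability to regenerate. The small RNA kit tailed RNA with poly(A) before cDNA synthesis and PCR, with no selection for snoRNAs, so the table also held counts on mRNAs and other long RNAs.

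A C/D box snoRNA is named after its short C and D box motifs, on which the core proteins fibrillarin, Nop56, Nop58 and Snu13 assemble into a particle in the nucleolus. Most of these particles carry a guide sequence that pairs with ribosomal RNA, where fibrillarin methylates the ribose, while a few are needed to cut or modify pre-rRNA in other ways. In mammals most members lie in introns of a host gene, often a gene for a ribosomal protein, a translation factor or a nucleolar protein, and are trimmed out of the spliced intron, so that snoRNA and host mRNA share a transcript but are stable for different lengths of time.

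Library totals were 2301587 to 5553530 counts, and levels are given as normalized counts, that is counts scaled by the trimmed mean of M-values (TMM) to the mean effective library size. Mitochondrial genes, their rRNAs included, held 19.0% of a P01 library on average, 23.5% of a P04, 26.3% of a P09 and 42.4% of a P23 library. Within a day the members shifted together between animals, which carry the animal numbers of the count columns as replicate numbers. P09 replicate 2 was the lowest P09 library for 43 of 43 tested members, P23 replicate 6 was the lowest P23 library for 40, and P09 replicate 5 and P23 replicate 8 were the highest of their days for 36 and 32, so the members were not independent of each other and the counts of called members in P09–P01 and in the comparisons with P23 are also given without single libraries. The heart markers Myh6, Tnnt2, Actc1 and Ttn were among the 10 cardiomyocyte genes of the marker list, all tested, with summed levels of 64295 to 90345 normalized counts at P23 and 35276 to 38978 at P01. In P23–P01, 6 of these 10 were called higher and 2 lower, with 13.6% of all genes called higher and 16.6% lower. Summed endothelial levels (7 of 7 genes tested) were 352 to 491 at P23 and 334 to 388 at P01. Those of fibroblast and smooth muscle genes (9 of 9 tested) were 2290 to 3087 at P23 and 2106 to 2701 at P01. Both lists overlapped between these days, and the other marker lists did not. At P09, however, endothelial levels (427 to 530) and fibroblast and smooth muscle levels (3551 to 3908) stood above those of P01 without overlap. Summed erythroid levels (5 of 7 genes tested) were 5132 to 6758 at P23 and 1430 to 1511 at P01, leukocyte levels (5 of 9 genes tested) 153 to 207 at P23 and 81.9 to 90.9 at P01, and cell cycle levels (12 of 12 genes tested) 61.1 to 82.7 at P23 and 587 to 772 at P01, with 0 of these markers at 0 counts in all libraries. Cardiomyocyte (55400 to 66390) and erythroid levels (2375 to 3238) at P09 were also above P01, and leukocyte levels (56.4 to 73.3) were below it. Cell cycle levels at P09 (446 to 590) overlapped with P01. The part of these markers in the snoRNA results was not tested, and in bulk tissue fewer cells of a type and less RNA per cell cannot be told apart.

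The counts were concentrated in a few members. All Snord genes together held 3830281 of 65201967 counts, and the 10 members with the most counts held 76.8% of these. Snord37, within Eef2, the translation elongation factor, had the most (475152 counts), followed by Snord49a (412038), Snord82 in the nucleolin gene Ncl (326111), Snord72 in Rpl37 (320483), Snord59a in Atp5b, a subunit gene of ATP synthase (308341), Snord34 and Snord32a in Rpl13a (291590 and 281036), Snord87 in the long non-coding RNA (lncRNA) gene Snhg6 (254417), and Snord65 and Snord49b (157767 and 112983), which share the lncRNA host 2410006H16Rik with Snord49a. Snord37 stood at 38415, 36122, 25279 and 42713 normalized counts in P23 libraries, against 33052, 35786, 36407 and 36782 in P01 libraries. The P23 values lay on both sides of the P01 values, and Snord37 was called in no comparison.

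The 52 members at 0 were not of one kind. Of 17 genes of the Snord116l cluster, the imprinted copies known mainly from brain, 15 were at 0 and the other 2 held 4 counts in all, and the imprinted Snord64 and Snord107 were at 0. At 0 were also Snord14a, Snord14c, Snord14d and Snord14e, which act in the cutting of 18S pre-rRNA, Snord22, and of the Gas5 snoRNAs Snord47, Snord78 and both Snord80 entries. A count of 0 over all libraries allows a share of up to 4.60e-06% of the counts, for counting error only. Single hosts held counted and uncounted members side by side: in Rpl13a, Snord33 was at 0 while Snord32a, Snord34 and Snord35a held 641036 counts, and 5 hosts in all held both a tested member and a member at 0. Of the 4 other members that were not tested, Snord116l9 held 3 counts, Snord67 2, and Snord111 and Snord116l12 1 each. The counting of reads with several matches, or within overlapping genes, is not given in the sources used here, so a 0 cannot be told apart from reads that were left out.

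By position 89 of the 92 members with coordinates lay within the bounds of another gene, and 38 of the 43 tested members were given 1 host, 29 hosts in all. For members within 2 genes the host was chosen: Ap1g1 over Gm17344 for Snord71 and Snhg6 over Mcmdc2 for Snord87. Likewise Tsr1 was chosen over Srr for Snord91a and Chd8 over Gm26590 for Snord8. Host classes and host ratios of these members rest on that choice. Snord93 and Snord7 also lay within 2 genes and were given no host. By host there were 13 tested members in ribosomal protein genes, 9 in protein genes outside ribosome production, 8 in genes of nucleolar proteins, 6 in lncRNA genes and 2 in translation factor genes. Snord118 (U8) and Snord13 (U13) have genes of their own, and 3 members had no clear host. Tested members were annotated at 28 to 221 nt.

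The summed Snord share of all counts was 7.53% ± 0.393 (SD, n = 4) in P01 libraries, 6.76% ± 0.458 in P04, 5.23% ± 0.528 in P09 and 4.95% ± 0.435 in P23 libraries, and values after ± are SDs of 4 libraries here and below. With mitochondrial and rRNA genes left out of the total it was 20.6%, 18.7%, 15.8% and 18.2% on these days, and P23 was then above P09. Against that smaller total every P09 library was below every P01 library, the lowest P09 library being at 13.0% and the lowest P01 library at 19.9%. The P23 libraries ranged from 15.0% to 20.6% and overlapped with both. Without Snord37 the shares of all counts were 6.69%, 5.96%, 4.52% and 4.32%.

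**Figure D1:**
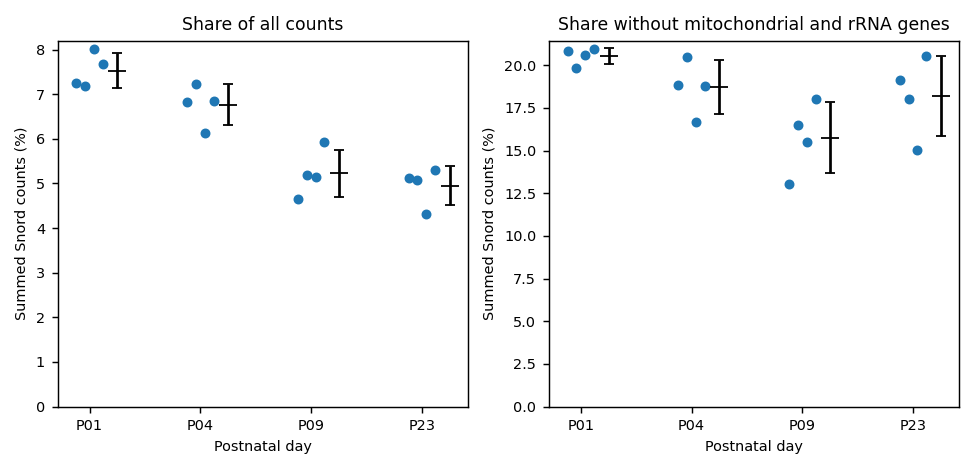
Share of counts on Snord genes in each library (%), by postnatal day, out of all counts (left) and out of counts without mitochondrial and rRNA genes (right). Points are libraries and bars are mean ± SD of 4. On the left P23 averages 4.95% and P01 7.53%, while on the right P23 averages 18.2%, P09 15.8% and P01 20.6%.

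Between P01 and P09 only the whole interval gave calls at an adjusted p under 0.01 and a fold change over 1.8. In the P04–P01 comparison 0 of 43 were called in either direction, with 1.07% of all 10742 tested genes called higher and 4.12% lower. At an unadjusted p under 0.05, 18 were lower and 0 higher, and DESeq2 also called 0. The share of all genes at an unadjusted p under 0.05 was not computed, here or below, so such counts have no background. The P09–P04 comparison called 0 members as well, with 1.39% of all genes called higher and 3.7% lower, 26 members lower and 0 higher at an unadjusted p under 0.05, and 0 called by DESeq2. Median log2 fold changes were -0.30 in P04–P01 and -0.45 in P09–P04, against 0.01 and -0.01 over all genes, with log2 fold changes below 0 for 40 and 41 of 43 members.

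In the P09–P01 comparison 16 of 43 members were downregulated and 0 upregulated, with 11.5% of all genes called lower and 6.18% higher. The log2 fold change was below 0 for 43 of 43, with a median of -0.75 (0.02 over all genes) and a range of -1.49 to -0.05. At an unadjusted p under 0.05, 35 were lower and 0 higher, and DESeq2 called 16 lower and 0 higher. Without P09 replicate 2, 9 were called lower, and with total counts alone, which moved the median of all genes by 0.30, 3 were. With libraries scaled on the snoRNAs alone, which moved the median of all genes up by 0.77, 0 were called lower and the snoRNA median was -0.02, since this scaling sets the members themselves as the reference.

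The fall took in members of most host classes. Called were 5 of 8 members in nucleolar protein genes (Snord53, Snord70, Snord110, Snord91a and Snord82), 4 of 6 in lncRNA genes (Snord65, Snord49a, Snord49b and Snord87), 6 of 13 in ribosomal protein genes (Snord73a, Snord42b, Snord4a, Snord35a, Snord43 and Snord34) and 1 of 9 in other protein genes (Snord88c). Snord53 fell most, with 44.7, 48.7, 61.3 and 81.9 normalized counts in P09 libraries, against 165, 159, 198 and 141 in P01 libraries (log2 fold change -1.49, SE 0.17, edgeR adjusted p = 1.87e-08). Its host Wdr43 encodes a protein of the complex that processes the small subunit pre-rRNA. Snord65 had 4832, 7287, 6962 and 8794 in P09 libraries and 15850.0, 16377, 17313 and 17130.3 in P01 libraries (log2 fold change -1.26, SE 0.18, edgeR adjusted p = 2.07e-06). Snord70, within the core protein gene Nop58, had 184, 280.1, 300.3 and 435 at P09 and 625, 629, 726 and 726 at P01 (log2 fold change -1.18, SE 0.24, edgeR adjusted p = 0.00112). For these 3 members every P09 library was below every P01 library. Snord110, within the core protein gene Nop56, averaged 634 ± 82.3 at P09 and 1342 ± 32.3 at P01 (log2 fold change -1.08, SE 0.14, edgeR adjusted p = 5.48e-07), and Snord73a, within Rps3a1, averaged 155 ± 30.3 at P09 and 320.0 ± 20.7 at P01 (log2 fold change -1.05, SE 0.15, edgeR adjusted p = 1.16e-06). Snord88c was the least stable of the 16, since leaving out any of 7 of the 8 libraries ended its call. Of the abundant members Snord49a had 19479 ± 3440.4 at P09 and 39330.0 ± 529 at P01 (log2 fold change -1.01, SE 0.17, edgeR adjusted p = 1.65e-05).

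Some members stayed near their P01 level. Snord104, in the lncRNA gene Gm36220, averaged 3113 ± 639 normalized counts at P09 and 3216 ± 435 at P01. Snord23, in the gene of the ribosome assembly protein Nop53, averaged 683 ± 194 at P09 and 753 ± 193 at P01. Snord71, in Ap1g1, which encodes the gamma subunit of a clathrin adaptor, averaged 764 ± 143 at P09 and 883 ± 60.3 at P01. Of these 3, 0 were called in P09–P01, and all 3 were among the members called higher in P23–P09 and in P23–P01. The 3 were named with their later rises known. Snord92, with few counts, also stayed near its P01 level, at 31.9 ± 7.05 at P09 and 35.8 ± 9.74 at P01. It was called higher in P23–P09 but not in P23–P01.

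**Figure D2:**
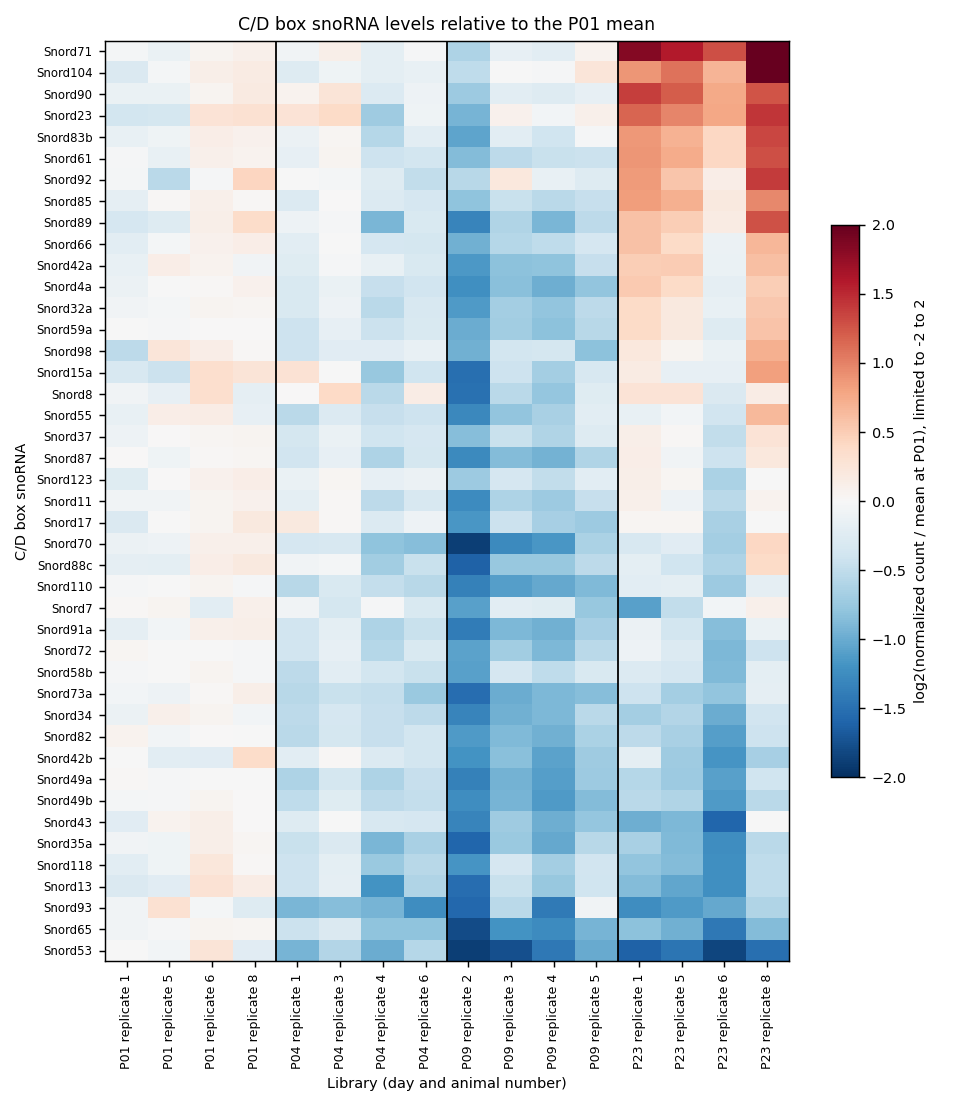
Levels of the 43 tested C/D box snoRNAs in each library, as log2 of the normalized count over the mean at P01, with colours limited to -2 to 2 and members ordered by the P23–P01 fold change. The P09 block is blue for nearly every member and most so in P09 replicate 2, and the P23 block runs, as the ordering sets, from red at the top (Snord71 averages 2893 at P23 and 883 at P01) to blue at the bottom (Snord53 averages 54.6 at P23 and 166 at P01).

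In the P23–P09 comparison 16 of 43 members were upregulated and 0 downregulated, with 4.78% of all genes called higher and 5.55% lower. DESeq2 called 17 higher and 0 lower, and 31 were higher and 0 lower at an unadjusted p under 0.05. The median was 0.70 (0.00 over all genes), and 39 of 43 log2 fold changes were above 0. Without P23 replicate 8, 12 members were called higher. Scaling by total counts alone, which moved the median of all genes down by 0.68, left 1 called higher and 1 lower with a snoRNA median of 0.01, and scaling on the snoRNAs, which sets the members themselves as the reference, left 1 higher and 3 lower.

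The rises were spread over the host classes with 5 of 9 members in other protein genes, 4 of 13 in ribosomal protein genes, 3 of 8 in nucleolar protein genes, 2 of 6 in lncRNA genes, 1 of 2 in translation factor genes and 1 of 3 without a clear host. Snord71 rose most, to 3147, 2651, 2164 and 3609 normalized counts in P23 libraries, against 578, 787, 767 and 926 in P09 libraries (log2 fold change 1.92, SE 0.17, edgeR adjusted p = 2.87e-10). Every P23 library was above every P09 library. Snord89, without a clear host, had 560.1, 523, 416 and 905 at P23 and 149, 246, 198 and 258 at P09 (log2 fold change 1.498, SE 0.27, edgeR adjusted p = 6.40e-04). Snord90, in Rc3h2, which encodes the RNA-binding protein Roquin-2, had 1926, 1709, 1255 and 1773 at P23 and 447, 641, 618 and 663 at P09 (log2 fold change 1.49, SE 0.16, edgeR adjusted p = 2.12e-08). Neither member overlapped between the days. Snord61, in the X-linked splicing factor gene Rbmx, averaged 1992 ± 515 at P23 and 745 ± 100.3 at P09 (log2 fold change 1.42, SE 0.17, edgeR adjusted p = 1.05e-07), and Snord104 averaged 7728 ± 3594 at P23 and 3113 ± 639 at P09 (log2 fold change 1.31, SE 0.22, edgeR adjusted p = 4.93e-05). A single P23 library of Snord104, replicate 8, stood far above the others (5143 to 6810.4 and 13021), and without any 1 library the log2 fold change was 0.94 to 1.47, with the call kept each time. The other 11 rises were Snord4a, Snord85, Snord23, Snord83b, Snord42a, Snord32a, Snord70, Snord59a, Snord66, Snord92 and Snord87, with log2 fold changes of 0.89 to 1.28. Of these, Snord70 lost its call without any of 4 libraries, Snord92 and Snord87 without either of 2, and Snord23 without P23 replicate 8.

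Snord4a, Snord70 and Snord87 were called lower in P09–P01 and higher in P23–P09. Snord87 averaged 20619 ± 788 normalized counts in P01 libraries, 15965 ± 2003 in P04, 11045 ± 2099 in P09 and 20431 ± 3778 in P23 libraries. Its P23 and P01 means lay closer together than the P23 libraries did. The 2 comparisons share the P09 libraries, so a low or high P09 value enters both.

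Across the whole interval, P23–P01, 6 members were upregulated and 4 downregulated, with 13.6% of all genes called higher and 16.6% lower, so calls among the members were no more frequent than among all genes in the lower direction and about as frequent in the higher one. The median was -0.09 (0.00 over all genes). Log2 fold changes were above 0 for 19 members and below 0 for 24, from -1.60 to 1.71. The rises were Snord71, Snord104, Snord90, Snord23, Snord83b and Snord61, and the falls Snord53, Snord65, Snord93 and Snord13. Without P23 replicate 8, 3 rises (Snord71, Snord90 and Snord104) and 7 falls (with Snord118, Snord35a and Snord43 added) were called, and without P23 replicate 1 or P23 replicate 5 there were 2 falls. With total counts alone, which moved the median of all genes by -0.38, there was 1 rise and 13 falls, and of the 10 calls 8 were kept with scaling on the snoRNAs.

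Of 9 members in protein genes outside ribosome production, 3 rose (Snord71, Snord90 and Snord61), 0 fell, and the median was 0.25. Snord71, at chr8:109839312-109839375 of GRCm38.p6, stood at 3147, 2651, 2164 and 3609 normalized counts in P23 libraries, against 862, 809, 916 and 946 in P01 libraries (log2 fold change 1.71, SE 0.16, edgeR adjusted p = 4.51e-10). At P04 it averaged 859 ± 78.4, and all 4 P23 libraries stood above all 12 earlier ones. Snord90, at chr2:37400061-37400128, had 1926, 1709, 1255 and 1773 in P23 libraries and 672, 677, 768 and 840.3 in P01 libraries (log2 fold change 1.17, SE 0.16, edgeR adjusted p = 3.72e-07). Snord61, at chrX:57391448-57391509, had 2014, 1821, 1451 and 2680.0 in P23 libraries and 1071, 986, 1168 and 1147 in P01 libraries (log2 fold change 0.87, SE 0.17, edgeR adjusted p = 6.12e-05). The groups did not overlap for either member, but the Snord61 call was lost without P01 replicate 5 or P23 replicate 8.

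Of 13 members in ribosomal protein genes 1 rose (Snord83b) and 0 fell, with a median of -0.39, and 0 of 2 in translation factor genes were called. Snord83b, in Rpl3 at chr15:80078503-80078579, had 9654, 8608, 7039 and 13300.0 normalized counts in P23 libraries and 4789.6, 4986, 5797 and 5611 in P01 libraries (log2 fold change 0.87, SE 0.20, edgeR adjusted p = 5.80e-04). Its groups did not overlap, but the call was lost without P01 replicate 1, P01 replicate 5 or P23 replicate 8. Several others were lower by less than the fold change minimum, among them Snord35a (log2 fold change -0.80, SE 0.19, edgeR adjusted p = 8.43e-04) and Snord43 (log2 fold change -0.76, SE 0.22, edgeR adjusted p = 0.00707). For Snord43 the 4 P23 libraries stood at 2209.8, 2312, 1442 and 4282, against 3696, 4521, 4717 and 4369 in P01 libraries, and without its high library, P23 replicate 8, it was called lower.

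Among 8 members in nucleolar protein genes, Snord23 rose and Snord53 fell, and among 6 in lncRNA genes, Snord104 rose and Snord65 fell. Snord23 had 1686, 1483, 1286 and 2020.2 in P23 libraries and 584, 588, 906 and 933 in P01 libraries (log2 fold change 1.10, SE 0.26, edgeR adjusted p = 0.00229). The call was lost without P23 replicate 8. Snord53, at chr17:71640889-71640956, had 53.8, 60.1, 46.5 and 58.1 in P23 libraries and 165, 159, 198 and 141 in P01 libraries (log2 fold change -1.60, SE 0.17, edgeR adjusted p = 3.58e-09). Snord53 was the member with the largest fall in both P09–P01 and P23–P01, and every P23 library was below every P01 library. Snord104 had 5936, 6810.4, 5143 and 13021 in P23 libraries and 2645, 3115, 3490.3 and 3612 in P01 libraries (log2 fold change 1.26, SE 0.22, edgeR adjusted p = 2.62e-05). Snord65 had 9402, 8538, 6167 and 9124 in P23 libraries and 15850.0, 16377, 17313 and 17130.3 in P01 libraries (log2 fold change -1.005, SE 0.18, edgeR adjusted p = 2.81e-05). Both were without overlap, and neither call was lost with a library left out.

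Of the pre-rRNA processing snoRNAs 2 were tested, and both have genes of their own. Snord13, which guides acetylation of 18S rRNA, had 5026, 4484, 3933 and 6497 normalized counts in P23 libraries and 7544, 7880.3, 11205 and 10135 in P01 libraries (log2 fold change -0.88, SE 0.23, edgeR adjusted p = 0.00301). Leaving out any of 5 libraries ended this call. Snord118, which is needed for processing of the large subunit pre-rRNA, had 2558, 2414, 1891 and 3114 in P23 libraries and 3834, 4184, 5175 and 4507 in P01 libraries (log2 fold change -0.83, SE 0.18, edgeR adjusted p = 3.82e-04). Its fold change stayed just under the minimum, and its groups did not overlap. Both were among the 4 members, with Snord53 and Snord93, whose log2 fold change was below 0 in P23–P09 (-0.17 for Snord13 and -0.22 for Snord118, neither called). Snord93, with no clear host and few counts, had 20.9, 22.3, 24.2 and 32.5 in P23 libraries and 46.8, 60.7, 48.0 and 41.1 in P01 libraries (log2 fold change -0.98, SE 0.26, edgeR adjusted p = 0.00285), and the call was lost without any of 3 libraries.

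**Figure D3:**
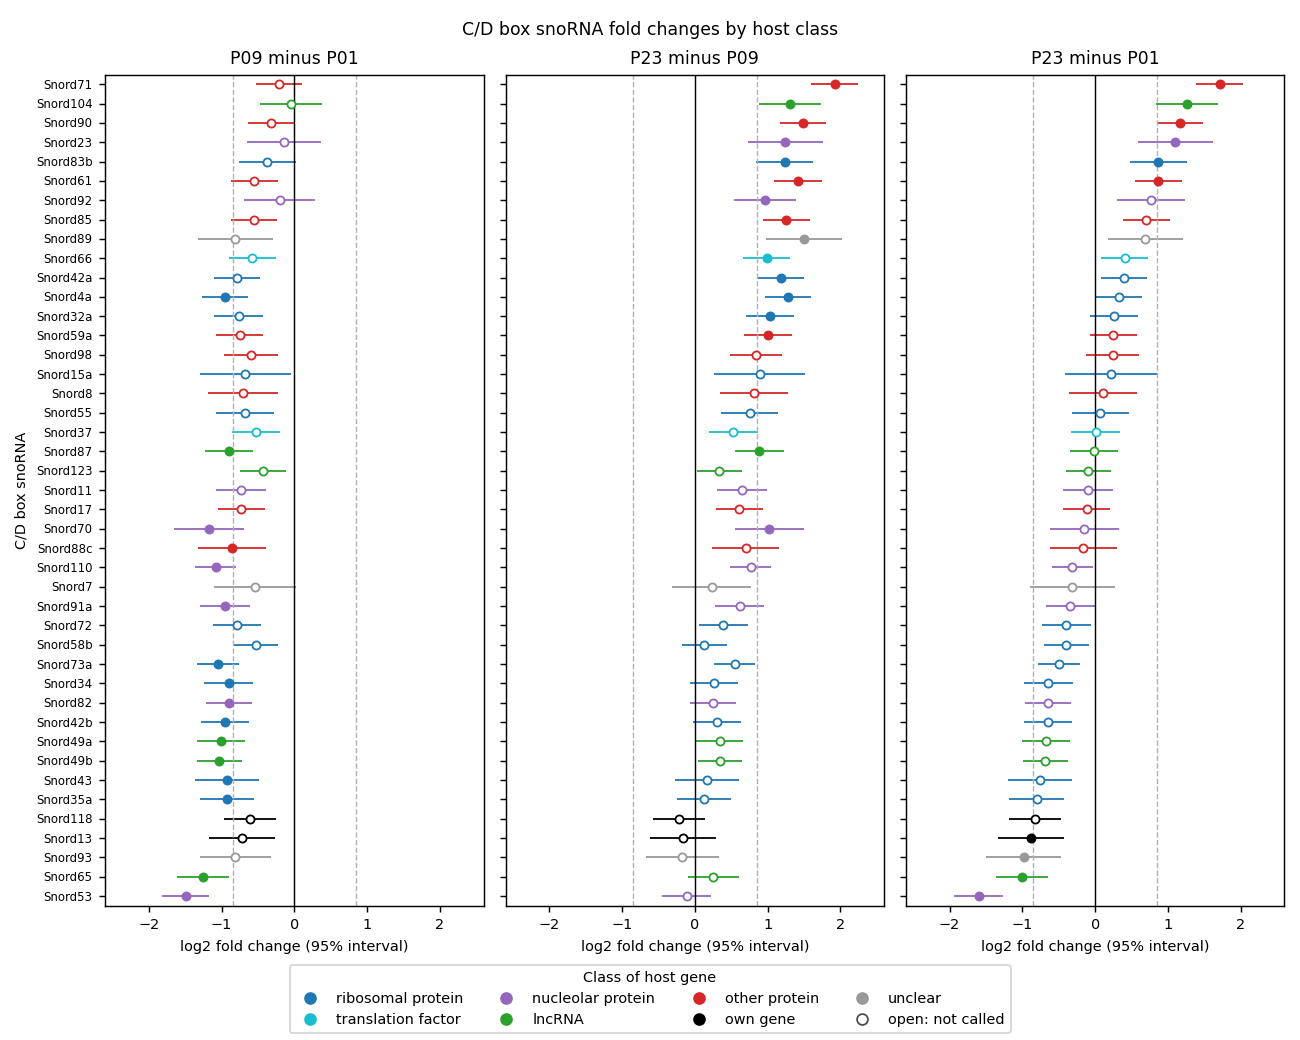
Log2 fold changes with 95% intervals of the 43 tested C/D box snoRNAs in P09 minus P01, P23 minus P09 and P23 minus P01, coloured by the class of the host gene. Filled points passed an adjusted p of 0.01 and a fold change of 1.8 (dashed lines). All points lie below 0 in P09 minus P01 (median -0.75), 39 of 43 lie above 0 in P23 minus P09, and in P23 minus P01 the points run from -1.60 (Snord53) to 1.71 (Snord71).

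Levels of 12 tested members were called in no comparison: Snord37, Snord72, Snord11, Snord118, Snord55, Snord123, Snord17, Snord58b, Snord15a, Snord8, Snord98 and Snord7, the last near the filter with day means of 11.3 to 16.3. Their log2 fold changes ran from -0.79 to -0.43 in P09–P01, from -0.22 to 0.89 in P23–P09 and from -0.83 to 0.24 in P23–P01. Snord72, the most abundant of them after Snord37, averaged 27162 ± 491 normalized counts in P01 libraries, 21323 ± 2516 in P04, 15735 ± 2511 in P09 and 20672 ± 4499 in P23 libraries, and Snord11, in Nop58, 5548 ± 327, 4711 ± 754, 3325 ± 717 and 5199.8 ± 998 on the same days. Both had their lowest mean at P09.

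The P23–P04 comparison gave 9 rises and 1 fall, with 9.57% of all genes called higher and 12.5% lower. The rises were the 6 of P23–P01 and Snord89, Snord92 and Snord85, with log2 fold changes of 0.92 to 1.75, and the fall was Snord53 at -0.85. Without P23 replicate 8 there were 5 rises and 2 falls, and with total counts alone, which moved the median of all genes by -0.61, 1 rise and 9 falls. The Snord53 fall was lost without any of 4 libraries. This comparison and P23–P01 share the P23 libraries.

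Members of 1 host lie in introns of 1 gene, and their ratio within a library does not depend on how libraries are scaled. There were 6 hosts with 2 or more tested members, and these gave 12 pairs. Of these, 8 pairs differed between P23 and P01 at the smallest p that 4 libraries against 4 allow (two-sided exact permutation test, p = 0.0286, adjusted p = 0.0429 over the 12 pairs), in 5 of the 6 hosts, and pairs of one host share members. A pair at this smallest p passes the adjustment only because enough of the 12 pairs share it. With any 1 library left out the test cannot go below 0.0571, but 6 pairs higher and 2 to 3 lower still did not overlap.

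The windows around the annotated start sites of 3 of these hosts are shown, and those of Rpl3, Rpl23a and Nop58 are not. Transcripts of ribosomal protein genes and of many snoRNA hosts in vertebrates start with a run of C and T (the 5′ terminal oligopyrimidine motif). They are 50 bases, 25 before the annotated start and 25 from it, from RefSeq on GRCm38.p6, with the longest run of at least 5 C or T bases in capitals on the transcribed strand.
Rpl13a, chr7:45128721-45128770, minus strand: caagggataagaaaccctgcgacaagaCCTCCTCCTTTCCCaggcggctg
2410006H16Rik, chr11:62602852-62602901, plus strand: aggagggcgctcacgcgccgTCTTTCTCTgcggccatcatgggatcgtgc
Wdr43, chr17:71616190-71616239, plus strand: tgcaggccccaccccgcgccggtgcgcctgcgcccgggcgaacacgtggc
The run was 14 bases in Rpl13a and 9 in 2410006H16Rik, and none of 5 was found in Wdr43 or in the window of Nop58. In Rpl13a the run began at base 3 from the annotated start, and in 2410006H16Rik it began 5 bases before that start. Such a run of at least 5 was in 16 of 22 host windows available and in 64.7% of all 32851 windows of this length, and a run of at least 10 in 9.28% of all windows, so the letters are a description of the windows. Sequences of the snoRNAs themselves are not shown here.

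In Rpl13a, Snord35a and Snord34 diverged from Snord32a. Of the snoRNAs of this gene, Snord32a, Snord33 and Snord35a are known as mediators of lipid stress in cultured rodent cells. Within the gene on chromosome 7, Snord32a is at chr7:45127383-45127463, Snord34 at chr7:45126603-45126668 and Snord35a at chr7:45126347-45126435. The count ratio of Snord35a to Snord32a was 0.156, 0.153, 0.149 and 0.151 in P23 libraries, against 0.318, 0.308, 0.332 and 0.319 in P01 libraries (difference in log2 ratio -1.07, SE 0.0264, exact permutation p = 0.0286, adjusted p = 0.0429). The 4 P23 ratios lay within 0.149 to 0.156, below every library of the other days, and P04 (0.245 to 0.289) and P09 (0.234 to 0.315) lay nearer to P01. For Snord34 to Snord32a the ratio was 0.621, 0.760, 0.721 and 0.681 in P23 libraries and 1.25, 1.42, 1.30 and 1.22 in P01 libraries (difference in log2 ratio -0.90, SE 0.0794, exact permutation p = 0.0286, adjusted p = 0.0429). The ratio of Snord35a to Snord34 did not pass the test (difference in log2 ratio -0.17, SE 0.0956, exact permutation p = 0.143, adjusted p = 0.19). As single members, Snord32a had 27123, 23679, 18778 and 30325 normalized counts in P23 libraries and 19848, 20278, 21658 and 21377 in P01 libraries (log2 fold change 0.26, SE 0.17, edgeR adjusted p = 0.2), a log2 fold change that was -0.15 with total counts alone, while Snord34 had 16847, 18003, 13534 and 20639.6 in P23 libraries and 24733, 28846, 28123 and 26064 in P01 libraries (log2 fold change -0.64, SE 0.17, edgeR adjusted p = 0.0022).

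In Rpl3, the ratio of Snord83b to Snord43 was 4.37, 3.72, 4.88 and 3.11 in P23 libraries, against 1.30, 1.10, 1.23 and 1.28 in P01 libraries (difference in log2 ratio 1.69, SE 0.15, exact permutation p = 0.0286, adjusted p = 0.0429). The P09 libraries, at 1.48, 1.73, 1.81 and 2.08, lay between them without overlap with either. The P04 libraries, at 1.36, 1.25, 1.03 and 1.35, overlapped with P01. Snord43 is at chr15:80082859-80082906 and Snord83b at chr15:80078503-80078579 in the same gene.

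In Wdr43 the largest difference of the 12 pairs was found. The ratio of Snord92 to Snord53 was 1.20, 0.872, 0.842 and 1.62 in P23 libraries, against 0.215, 0.160, 0.181 and 0.347 in P01 libraries (difference in log2 ratio 2.34, SE 0.33, exact permutation p = 0.0286, adjusted p = 0.0429). Both members had few counts, Snord92 with 64.8, 52.4, 39.0 and 94.7 normalized counts at P23 and 34.7, 24.6, 35.3 and 48.4 at P01. Snord92 missed the fold change minimum in P23–P01 (log2 fold change 0.76, SE 0.24, edgeR adjusted p = 0.00972), while Snord53 was called lower. Day means of the log2 ratio were -2.21 for P01, -1.62 for P04, -0.87 for P09 and 0.13 for P23.

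In Rpl23a, Snord42a and Snord4a moved away from Snord42b. The ratio of Snord4a to Snord42b was 37.8, 48.6, 45.7 and 50.7 in P23 libraries, against 21.3, 26.3, 27.1 and 18.9 in P01 libraries (difference in log2 ratio 0.97, SE 0.16, exact permutation p = 0.0286, adjusted p = 0.0429), and that of Snord42a to Snord42b was 11.0, 15.9, 14.2 and 16.5 in P23 libraries and 6.22, 8.67, 8.34 and 5.09 in P01 libraries (difference in log2 ratio 1.04, SE 0.22, exact permutation p = 0.0286, adjusted p = 0.0429). The P04 and P09 ratios overlapped with those of P01 for both pairs. Snord42a to Snord4a, the pair with 0.292, 0.327, 0.310 and 0.325 in P23 libraries and 0.291, 0.330, 0.308 and 0.270 in P01 libraries, did not pass (difference in log2 ratio 0.07, SE 0.0716, exact permutation p = 0.4, adjusted p = 0.48). In P23–P01 the 3 members were not called by themselves, with log2 fold changes of 0.40 for Snord42a, 0.33 for Snord4a and -0.65 for Snord42b, where total counts alone gave -0.02 for Snord42a and -0.08 for Snord4a. Snord42a and Snord42b are named as copies of one snoRNA, and how reads that fit both were counted is not given, so the split of counts between them is uncertain.

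The 3 members of the lncRNA gene 2410006H16Rik stayed closer together. The ratio of Snord49b to Snord65 was 0.776, 0.818, 0.785 and 0.805 in P23 libraries, against 0.652, 0.640, 0.639 and 0.628 in P01 libraries (difference in log2 ratio 0.32, SE 0.0205, exact permutation p = 0.0286, adjusted p = 0.0429). That of Snord49a to Snord65 was 2.82, 2.79, 3.00 and 3.28 at P23 and 2.53, 2.37, 2.26 and 2.29 at P01 (difference in log2 ratio 0.33, SE 0.0649, exact permutation p = 0.0286, adjusted p = 0.0429). Both differences were smaller than those in the other 4 hosts with a pair that passed. Snord49b to Snord65 ran from 0.603 to 0.804 in P04 libraries and from 0.662 to 0.933 in P09 libraries. Snord49a to Snord65 ran from 2.07 to 3.00 at P04 and from 2.64 to 3.20 at P09. Animals of 1 day thus differed by about as much as P23 from P01. The copies Snord49b and Snord49a kept a ratio of 0.276, 0.293, 0.262 and 0.245 at P23 and 0.258, 0.269, 0.283 and 0.274 at P01 (difference in log2 ratio -0.01, SE 0.0611, exact permutation p = 0.857, adjusted p = 0.857), with overlap between the days. How reads that fit both copies were counted is not given, so the split of counts between them is uncertain as well. In Nop58, the ratio of Snord70 to Snord11 was 0.0907, 0.112, 0.111 and 0.154 at P23 and 0.119, 0.119, 0.126 and 0.123 at P01 (difference in log2 ratio -0.09, SE 0.16, exact permutation p = 0.6, adjusted p = 0.655), and the P23 libraries lay on both sides of the P01 libraries. Every P04 library (0.0846 to 0.111) and every P09 library (0.0777 to 0.109) lay below every P01 library. The ratios of P04 and P09 were not tested.

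**Figure D4:**
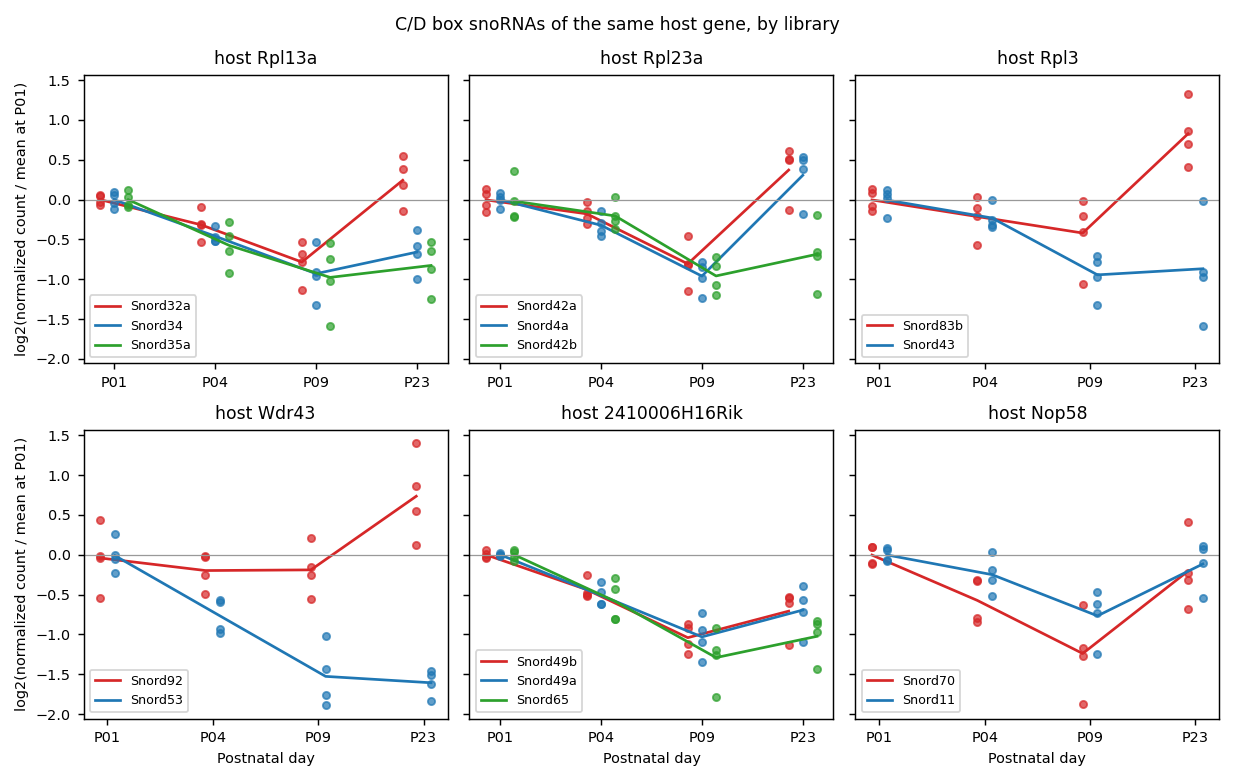
Log2 of the normalized count over the mean at P01 for the C/D box snoRNAs of the 6 hosts with 2 or more tested members, by postnatal day. Points are libraries and lines join the day means of the log2 values. In Rpl13a, Rpl23a and Rpl3 the lines part mainly between P09 and P23, and in Wdr43 already from P01 on (Snord83b to Snord43 has count ratios of 3.11 to 4.88 at P23 and 1.10 to 1.30 at P01), and in 2410006H16Rik and Nop58 they stay close.

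The host genes gave a second reference for each intronic member. Of 38 members given 1 host, 37 had a tested host, and the host of Snord104, Gm36220, was not tested. Over the 28 tested hosts the P23–P01 comparison called 0 higher and 3 lower (Rpl3, Snhg6 and 2410002F23Rik), with a median log2 fold change of -0.38. Of all tested genes 13.6% were called higher and 16.6% lower, so hosts were not called more often than genes at large. Host counts were low, with 9 hosts under 30 normalized counts at P23. Of the 37 snoRNA to host ratios 0 passed the test after adjustment (smallest adjusted p = 0.0755 over 37 pairs), and 14 reached the smallest p that 8 libraries allow, 0.0286 in the exact permutation test, 9 of them higher at P23 and 5 lower. Over 37 pairs a ratio at this smallest p passes only if many more pairs share it, however large its difference. The adjusted test therefore cannot decide on single host pairs, and no lack of change is read from it. The difference in log2 ratio had a median of 0.44 and ran from -1.29 to 2.65.

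Snord88c to 2410002F23Rik had the highest value (difference 2.65, SE 0.31, exact permutation p = 0.0286, adjusted p = 0.0755), where the host had 14.7 ± 2.17 normalized counts at P23 and 109 ± 8.60 at P01 (log2 fold change -2.86, SE 0.20, edgeR adjusted p = 4.94e-13) and Snord88c averaged 373 ± 118 at P23 and 416 ± 58.1 at P01. Snord53 to Wdr43 had the lowest (difference -1.29, SE 0.20, exact permutation p = 0.0286, adjusted p = 0.0755), with Wdr43 at 42.2 ± 5.75 normalized counts at P23 and 51.5 ± 6.09 at P01, while the second member of Wdr43, Snord92, had a positive value (difference 1.05, SE 0.28, exact permutation p = 0.0286, adjusted p = 0.0755). Snord71 to Ap1g1 had no overlap between the days (difference 1.01, SE 0.24, exact permutation p = 0.0286, adjusted p = 0.0755), with Ap1g1 at 52.4 ± 5.22 normalized counts at P23 and 32.8 ± 7.89 at P01 (log2 fold change 0.66, SE 0.18, edgeR adjusted p = 0.00366), not called. Snord83b to Rpl3 (difference 1.81, SE 0.25, exact permutation p = 0.0286, adjusted p = 0.0755) and Snord43 to Rpl3 (difference 0.12, SE 0.36, exact permutation p = 0.857, adjusted p = 0.906) took different values, and Rpl3 itself fell (log2 fold change -0.97, SE 0.15, edgeR adjusted p = 4.28e-06). In the lncRNA gene Snhg6 the host fell (log2 fold change -1.13, SE 0.27, edgeR adjusted p = 8.77e-04), while Snord87 averaged 20431 ± 3778 at P23 and 20619 ± 788 at P01 (snoRNA to host difference 1.11, SE 0.17, exact permutation p = 0.0286, adjusted p = 0.0755).

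**Figure D5:**
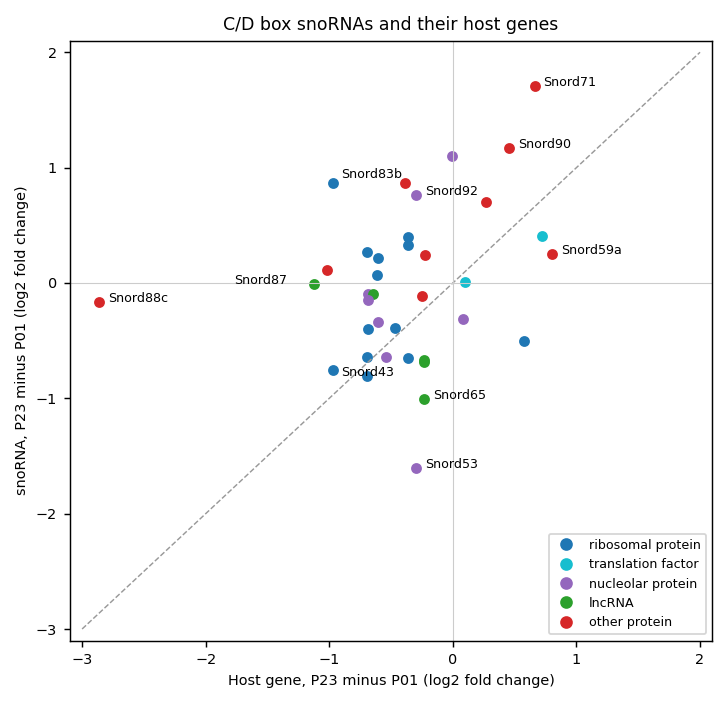
P23 minus P01 log2 fold change of each C/D box snoRNA (vertical) against that of its host gene (horizontal), for the 37 members with a tested host, coloured by host class. The dashed line marks equal change. Snord71 (1.71) and Snord83b (0.87) lie above the line, Snord53 (-1.60) and Snord65 (-1.005) below it, and the point farthest left is Snord88c, whose host 2410002F23Rik is at -2.86.

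For the proteins that build and use these particles only RNA counts on their genes were available, and protein was not measured. Such counts were low for the core genes. Nop56 and Nop58 together had 63.2 to 70.3 normalized counts at P23 and 89.1 to 99.7 at P01. Of the box C/D core proteins, Nop56 and Nop58 were tested (2 of 4) and edgeR and DESeq2 called 0 in P09–P01, P23–P09 and P23–P01, where 1, 0 and 1 were lower and 0 higher at an unadjusted p under 0.05. Of the assembly and transport factors, 10 of 12 were tested, and both tools again called 0 in the same 3 comparisons, where 3, 0 and 3 were lower and 1, 0 and 0 higher at an unadjusted p under 0.05, with median log2 fold changes of -0.25, 0.02 and -0.16. Among early pre-rRNA processome proteins, 21 of 22 were tested, with 0 higher and 1 lower in P09–P01, 1 higher and 0 lower in P23–P09, and 1 higher and 1 lower in P23–P01, the same counts as with DESeq2, where 6.18% of all genes were called higher and 11.5% lower in P09–P01, 4.78% and 5.55% in P23–P09, and 13.6% and 16.6% in P23–P01 by edgeR. Nucleolar growth genes, which include the nucleolin host Ncl, had 15 of 16 tested, with 1 higher and 2 lower in P09–P01 (0 higher and 2 lower with DESeq2) and 0 higher and 2 lower in P23–P01 with either tool. In P23–P09 edgeR and DESeq2 called 0 of these growth genes, with 2 higher and 2 lower at an unadjusted p under 0.05.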

How the data were processed

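Ventricular RNA of 16 pups, 4 per day, was profiled as small RNA libraries. The deposited counts are raw counts per Ensembl gene, which the authors made, per the submitters' processing notes, with bcl2fastq, Trimmomatic, STAR and featureCounts on GRCm38.p6, with DESeq2 also named. How multi-mapping or overlapping reads and strand were counted is not given in the sources used here, so a snoRNA count can hold host intron fragments. Libraries were assigned to days by the day in the column name, and 1 count column that matched no sample was not used. Each animal gave 1 library, so n counts animals. PCR reads carried no molecular identifiers, and limits from 0 counts cover counting error only.

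Genes were matched to symbols for 53620 of 53801 identifiers. Positions and start-site sequences came from RefSeq on GRCm38.p6. Low counts were filtered with filterByExpr (minimum count 10, minimum total 15), which left 10742 genes, and 1 fit of 16 libraries was made with edgeR 4.0.16 (R 4.3.3, limma 3.58.1, TMM, robust quasi-likelihood). A gene was called at a Benjamini-Hochberg adjusted p under 0.01 over all tested genes and a fold change over 1.8. Normalized counts were scaled to the mean effective library size, and SEs were derived from the F statistic. Ratios of 2 genes within a library used log2 of counts plus 0.5 and a two-sided exact permutation test over 70 assignments of the P23 and P01 libraries, adjusted over pairs, with a threshold of 0.05. Ratios were computed in Python 3.11.15 (pandas 2.3.3, numpy 2.4.6), and figures were drawn with matplotlib 3.10.9. The fit and the ratio test were tested on simulated data. Pairs of libraries of a day differed by more than sampling noise (chi-square over its degrees of freedom was 4.23 to 22.0), and each counted as 1 sample.

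Alternatives were DESeq2 1.42.0, its size factors in edgeR, total counts, TMM on the snoRNAs, omission of mitochondrial and rRNA genes, no filter, only the groups compared, other thresholds, a pseudocount of 2 and leaving out each library. Members and gene lists were chosen with earlier results of these data known. Named members were the 10 with the highest mean, the 5 largest called rises and falls of P04–P01, P09–P04, P09–P01, P23–P09 and P23–P01 without overlap between libraries, all members of the snoRNA lists, of hosts with 3 or more tested members, and Snord43. Other members were named after their values were seen.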

Additional observations from a re-analysis of the deposited data

Results flagged for a closer look

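Of 176 groups of 4 libraries (43 members and their summed share, on 4 days), 5 held a library far from the other 3 by Dixon's criterion, where chance flags about 1 in 20 groups. In P04 replicate 3, Snord49b was at 8963 normalized counts, against 7440.2 to 7658 in the other P04 libraries, and Snord85 was at 3943, against 3108 to 3234. In P23 replicate 6, Snord49b was at 4839, against 6985 to 7348 in the other P23 libraries, Snord110 at 813, against 1154 to 1183, and Snord17 at 540.1, against 842 to 868. These libraries were also the highest of P04 for 37 of 43 tested members and the lowest of P23 for 40 of 43.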

How the results depend on the processing

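Counts of called members depended on scaling and on single libraries more than on the test. DESeq2 kept all 16 calls in P09–P01, all 16 in P23–P09, all 10 in P23–P04 and all 10 in P23–P01. With total counts alone there were 3 falls in P09–P01, 1 rise and 1 fall in P23–P09, 1 rise and 9 falls in P23–P04, and 1 rise and 13 falls in P23–P01, and the P23–P01 log2 fold changes of Snord32a (-0.15), Snord42a (-0.0151) and Snord4a (-0.0826) turned negative. This scaling moved the median of all genes by 0.23 in P04–P01, 0.30 in P09–P01, -0.68 in P23–P09, -0.61 in P23–P04 and -0.38 in P23–P01. With TMM on the snoRNAs there were 0 falls in P09–P01, 1 rise and 3 falls in P23–P09, and 3 rises and 2 falls in P23–P04, with shifts of 0.77, -0.75 and -0.24. With DESeq2 size factors in edgeR there were 0 falls in P23–P04. With no filter there were 1 fall in P04–P01, 7 in P09–P01 and 0 in P23–P04, and with only the groups compared 1 fall in P04–P01. At an adjusted p under 0.05 and no fold minimum there were 6 falls in P04–P01, 15 in P09–P04, 35 in P09–P01, 26 rises in P23–P09, 15 rises and 2 falls in P23–P04, and 11 rises and 14 falls in P23–P01. The share of all genes at this looser threshold was not computed. A mean of at least 300 left 0 falls in P23–P04 and 2 in P23–P01. The cause of these differences was not tested.

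With each library left out in turn, falls numbered 0 to 1 in P09–P04 (1 without P09 replicate 5) and 9 to 22 in P09–P01 (9 without P09 replicate 2). Rises numbered 12 to 19 in P23–P09, 5 to 9 in P23–P04 and 3 to 8 in P23–P01, the lowest of each without P23 replicate 8. Falls numbered 0 to 2 in P23–P04 and 2 to 7 in P23–P01. Calls of Snord71, Snord90, Snord104, Snord53 and Snord65 in P23–P01 were kept without any 1 library. Of the pair ratios, Snord49b to Snord49a ran from -0.0554 to 0.0297 (0.0297 without P23 replicate 8), and Snord70 to Snord11 from -0.228 to 0.0263 (0.0263 without P23 replicate 1), neither called. With 4 libraries against 3 the ratio test cannot go below 0.0571, so 0 to 0 pairs passed; counted instead by libraries that did not overlap, chosen after seeing the data, 6 to 6 pairs within hosts were higher and 2 to 3 lower, and 9 to 16 host pairs were higher and 5 to 7 lower. The summed share at P01, P04, P09 and P23 was 20.6%, 18.7%, 15.8% and 18.2% without mitochondrial and rRNA genes, and 6.69%, 5.96%, 4.52% and 4.32% without Snord37. No paired analysis was possible because the count columns carry animal numbers that match no replicate number of the labels and each pup gave 1 library. Depth limits Snord7, Snord93, Snord92 and Snord98, whose day means were under 100 normalized counts, and 9 hosts under 30.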
